A study of Schizosaccharomyces pombe with 6 samples.

Results

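The 4 genes described here encode the fission yeast (Schizosaccharomyces pombe) DNA topoisomerases Top1, Top2 and Top3 and the RecQ-family helicase Rqh1. They were chosen by gene symbol in the platform annotation, and each had 1 probe set, so that 4 of the 2899 S. pombe genes with a probe set of their own are described. RNA came from cultures in mid-log growth in rich medium and was read on Affymetrix yeast arrays. The 6 arrays fell into 3 groups of 2. One group was a strain lacking fkh2 (fkh2delta, strain CG 116), another carried the fkh2-S2A mutant allele (strain name CG 209) and the last was wild type (also given as CG 209). Fkh2 belongs to the forkhead family of transcription factors and is known to control genes expressed periodically in mitosis. The labels do not spell out the S2A change. The fkh2delta group differs from the others in strain name as well as in fkh2, so an effect of fkh2 and one of the strain cannot be told apart. Wild type and fkh2-S2A carry the same strain name despite different fkh2 alleles, so the labels do not settle whether their backgrounds match.

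Topoisomerases change the winding of DNA by cutting and resealing it. Top1, a type IB enzyme, cuts a single strand and relaxes the supercoils that build up around transcription and replication. Top2, a type II enzyme, passes a whole duplex through a transient break and unlinks sister chromatids, which makes it essential for chromosome segregation in fission yeast. Top3, a type IA enzyme, works with the helicase Rqh1 and the cofactor Rmi1 to take apart joined DNA molecules left by recombination and stalled replication forks. Rqh1 is the fission yeast relative of human BLM and S. cerevisiae Sgs1, and the need of fission yeast for Top3 is known to be relieved when Rqh1 is lost.

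The signals of all 4 transcripts were higher in both mutants than in wild type, with no overlap between the arrays of either mutant and those of wild type. Of the 3 genes measured above background in wild type, the difference was largest for top2, which was 2.36-fold higher in fkh2delta and 3.07-fold higher in fkh2-S2A, and smallest for rqh1, at 1.22-fold and 1.34-fold. The top1 transcript was 2.02-fold and 1.66-fold higher in the same mutants. The top3 transcript was not above background in wild type, so its ratios are given as lower bounds, 1.10-fold in fkh2delta and 1.06-fold in fkh2-S2A. On the log2 scale both bounds are smaller than the standard error of the top3 difference, so they do not establish a rise of top3. These genes were put together with earlier results of the same arrays known, among them the top2 difference between fkh2-S2A and wild type. Their differences are therefore given as a description, with standard errors (SE) from a limma fit of all S. pombe probe sets and without p-values.

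The deposited values are on a log2 scale, where a difference of 1 is a doubling. The median of the 2936 S. pombe probe sets lay between 10.1 and 10.2 on every array. The background level of an array, taken as the 95th percentile of 2601 listed probe sets that match no S. pombe gene, lay between 5.17 and 5.35. Both fkh2delta arrays read the fkh2 transcript below background (4.34 and 4.05), against 7.53 and 7.39 in wild type. With 7.47 and 7.76 in fkh2-S2A, this transcript does not check the fkh2-S2A label. The labels do not state whether arrays of the same group stem from separate cultures. Errors and p-values therefore cover only array-to-array spread, possibly technical, and the number of arrays limits the precision.

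The top1 signal was 10.53 and 10.67 on the fkh2delta arrays, 10.29 and 10.33 on the fkh2-S2A arrays, and 9.71 and 9.45 on the wild-type arrays. The groups did not overlap, with fkh2delta highest and wild type lowest. The group means were 10.6 ± 0.096 in fkh2delta, 10.3 ± 0.024 in fkh2-S2A and 9.58 ± 0.18 in wild type (SD, n = 2 each). The difference from wild type was 1.02 ± 0.11 in fkh2delta and 0.73 ± 0.11 in fkh2-S2A (log2 ± SE).

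The top2 signal was 8.58 and 8.84 on the fkh2delta arrays, 9.07 and 9.11 on the fkh2-S2A arrays, and 7.58 and 7.36 on the wild-type arrays. Here fkh2-S2A was highest, fkh2delta lay between, and no group overlapped another. The group means were 8.71 ± 0.18 in fkh2delta, 9.09 ± 0.034 in fkh2-S2A and 7.47 ± 0.15 in wild type (SD, n = 2 each). The difference from wild type was 1.24 ± 0.12 in fkh2delta and 1.62 ± 0.12 in fkh2-S2A (log2 ± SE).

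The top3 signal was 5.49 and 5.48 on the fkh2delta arrays, 5.29 and 5.56 on the fkh2-S2A arrays, and 4.75 and 4.10 on the wild-type arrays. It was just above background on all 4 mutant arrays and below it on both wild-type arrays, while the fkh2delta and fkh2-S2A arrays overlapped each other. The fitted difference was 1.06 ± 0.19 for fkh2delta and 1.00 ± 0.19 for fkh2-S2A (log2 ± SE), and both rest on wild-type values below background. Set against the background level instead, the difference came to 0.14 in fkh2delta and 0.083 in fkh2-S2A, from which the bounds above follow. Both are smaller than the SE of 0.19. The lower fkh2-S2A value, 5.29, was also under the wild-type background levels of 5.35 and 5.34.

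The rqh1 signal was 8.95 and 8.92 on the fkh2delta arrays, 8.90 and 9.23 on the fkh2-S2A arrays, and 8.67 and 8.63 on the wild-type arrays. Both mutants lay above wild type, and the 2 fkh2-S2A arrays enclosed the fkh2delta pair. The group means were 8.93 ± 0.024 in fkh2delta, 9.07 ± 0.24 in fkh2-S2A and 8.65 ± 0.027 in wild type (SD, n = 2 each). The difference from wild type was 0.28 ± 0.12 in fkh2delta and 0.42 ± 0.12 in fkh2-S2A (log2 ± SE). After quantile normalization of the S. pombe probe sets the rqh1 differences were 0.028 and 0.19.

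**Figure D1:**
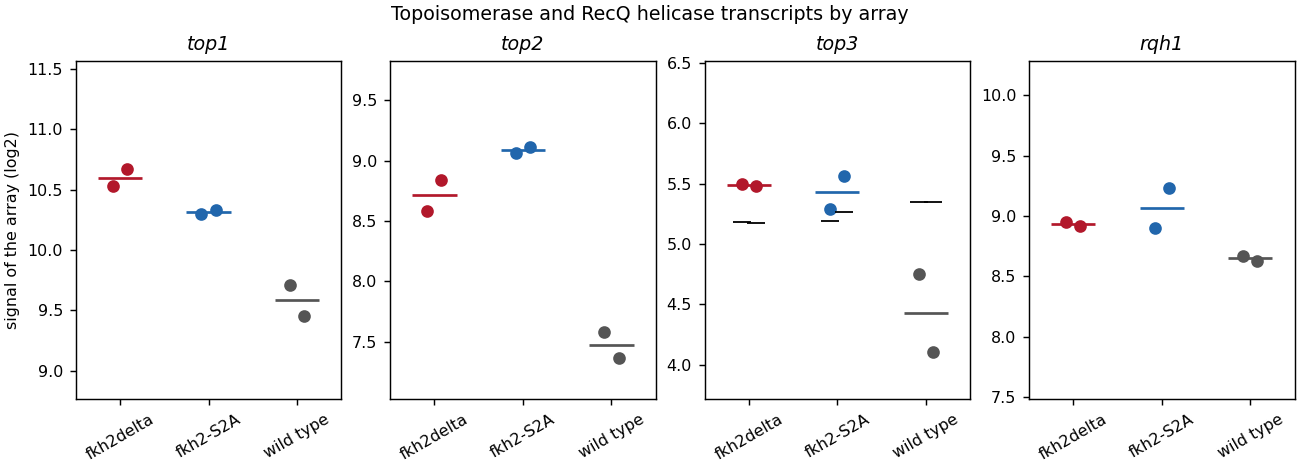
Signal of each array (log2, vertical axis) for top1, top2, top3 and rqh1, with fkh2delta, fkh2-S2A and wild type from left to right; points are arrays, coloured bars are group means, every panel spans the same number of log2 units, and black dashes in the top3 panel mark each array's background level. Both wild-type arrays lie below all mutant arrays in every panel, and the wild-type top3 values of 4.75 and 4.10 lie under the dashes.

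In fkh2delta against wild type, 4 of 4 genes had higher arrays without overlap, where 53.1% of all probe sets did. The fit's threshold (adjusted p below 0.05, Benjamini-Hochberg over 2936 probe sets) was passed by 3 of 4, all but rqh1, where 40.4% of all probe sets passed it upward and 64% in either direction. In fkh2-S2A against wild type, 4 of 4 were higher without overlap, where 40% of all probe sets were, and 4 of 4 passed the threshold, where 23.5% passed it upward. The counts include top3, whose wild-type values lay below background and whose bounds do not establish a rise. Because results of these contrasts were known when the genes were chosen, nothing is read from these counts.

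The place of each gene among all probe sets differed between the mutants. In fkh2delta the top1 and top2 differences exceeded those of 92.1% and 95.8% of probe sets. The rqh1 difference exceeded 59.0%. In fkh2-S2A the top2 difference ranked 3 of 2936, but it was known when the genes were chosen, so nothing is read from that rank. The top1 difference exceeded 94.9% of probe sets there and the rqh1 difference 81.9%. No place is given for top3, whose differences rest on wild-type values below background.

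The median of all probe sets was itself 0.16 higher in fkh2delta and 0.041 higher in fkh2-S2A. Relative to that median, the differences in fkh2delta were 0.86 for top1, 1.08 for top2, 0.90 for top3 and 0.13 for rqh1. In fkh2-S2A they were 0.69 for top1, 1.58 for top2, 0.96 for top3 and 0.38 for rqh1, the top3 values again from wild-type arrays below background. Over all probe sets, 1186 passed higher and 693 lower in fkh2delta, a split of 979 and 908 when the medians of the arrays were set equal and of 965 and 893 after quantile normalization. In fkh2-S2A the split was 689 higher and 289 lower, 560 and 498 with equal medians, and 442 and 422 after quantile normalization.

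**Figure D2:**
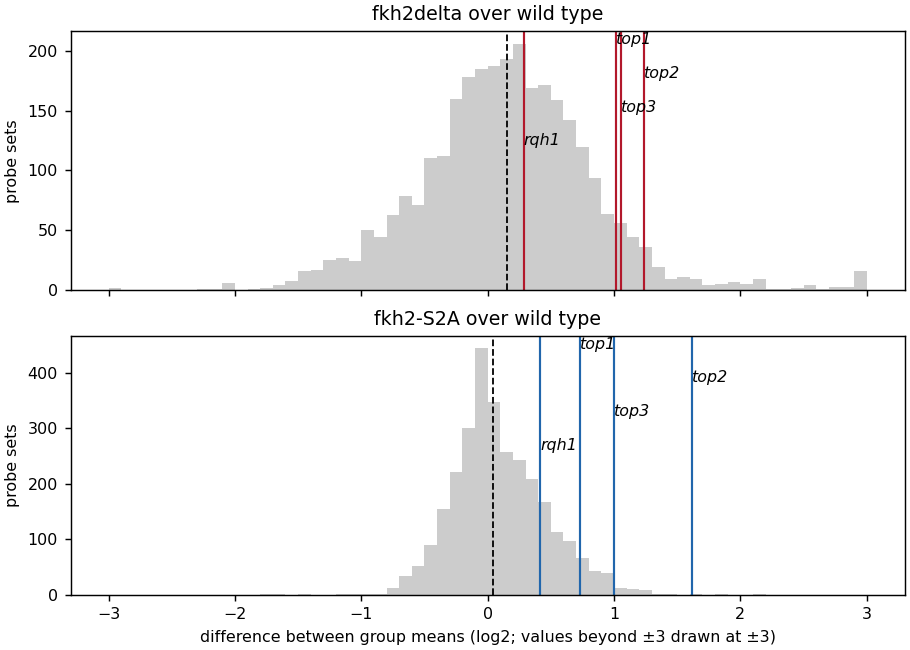
Number of probe sets (vertical axis) by difference between group means (log2, horizontal axis) for fkh2delta over wild type (top) and fkh2-S2A over wild type (bottom); coloured lines mark the 4 genes and the dashed line the median of all probe sets. In fkh2-S2A top2 stands at 1.62, rank 3 of 2936, a difference known when the genes were chosen, while rqh1 at 0.42 lies within the main body of the distribution.

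Between the mutants the 4 genes went different ways. The top2 transcript was 0.38 ± 0.12 higher in fkh2-S2A than in fkh2delta, and top1 was 0.29 ± 0.11 lower (a difference of -0.29). Neither pair of groups overlapped, 1 gene being higher where 37.3% of all probe sets were higher without overlap, and 1 lower where 40.9% were lower. The rqh1 difference was 0.13 ± 0.12 and the top3 difference -0.06 ± 0.19, and the arrays overlapped for both. The fit's threshold was passed by 1 of 4 genes, top2, where 49.1% of all probe sets passed in either direction.

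The arrays also differed in a trend of signal with gene length. Taking each array against the average array, signals of longer genes ran higher by 0.070 and 0.11 log2 units per doubling of length in fkh2-S2A. The same slope was -0.074 and -0.061 in fkh2delta, and -0.034 and -0.0095 in wild type. The top2 gene is the longest of the 4. With the trend removed, the top2 difference between fkh2-S2A and fkh2delta was 0.15 and no longer passed the fit's threshold, while top1 was -0.38. In fkh2-S2A against wild type top2 then stood at 1.46, top3 at 0.96, top1 at 0.66 and rqh1 at 0.29. In fkh2delta against wild type the values were 1.31 for top2, 1.07 for top3, 1.04 for top1 and 0.34 for rqh1.

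A measure of RNA quality also separated fkh2delta. Probe sets at the 3′ end of 6 S. pombe control genes exceeded those at the 5′ end by a mean of 1.53 and 1.61 in fkh2delta, 1.34 and 1.24 in fkh2-S2A, and 1.27 and 1.27 in wild type. Its part in the differences of the 4 genes was not tested. The array also carries probe sets for S. cerevisiae, of which TOP1, TOP2 and TOP3 were listed in the annotation used here. The S. cerevisiae TOP1 and TOP2 probe sets stayed below background on 6 of 6 arrays, between 3.44 and 3.71 and between 3.55 and 3.74. The S. cerevisiae TOP3 probe set was above background on 6 of 6 arrays, with 5.39 and 5.45 in fkh2delta, 5.80 and 5.66 in fkh2-S2A, and 5.59 and 5.90 in wild type, although the labels give S. pombe as the organism of every sample. Unlike the S. pombe top3 values, these were not lowest in wild type.

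**Figure D3:**
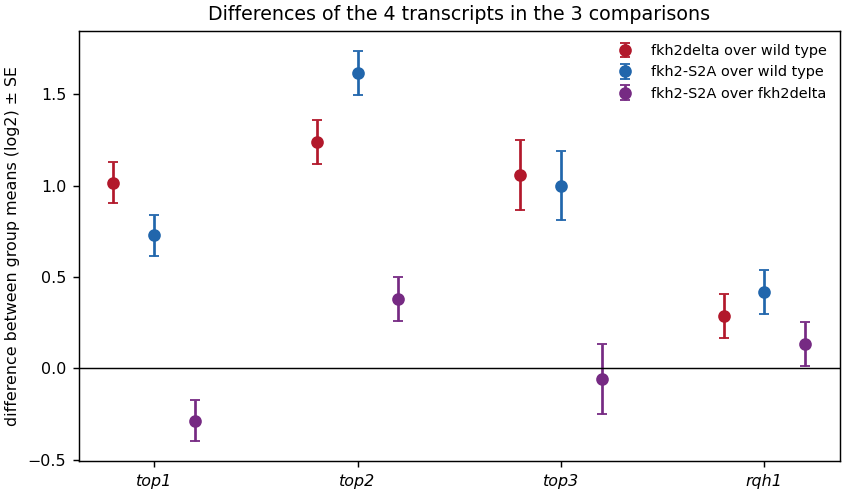
Difference between group means (log2, vertical axis; error bars are the SE of the limma fit, 2 arrays per group) for each gene in fkh2delta over wild type, fkh2-S2A over wild type and fkh2-S2A over fkh2delta. Values for both mutants over wild type lie above 0, from 0.28 for rqh1 in fkh2delta to 1.62 for top2 in fkh2-S2A, and those between the mutants from -0.29 for top1 to 0.38 for top2.

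The 4 profiles were compared by the root-mean-square (RMS) difference of their deviations from their own means over the 6 arrays. Among top1, top2 and rqh1, the profiles of top1 and rqh1 were closest, at 0.32, and those of top2 and rqh1 farthest apart, at 0.53. Pearson correlation over the 6 arrays gave another order, with 0.72 for top1 and rqh1, 0.87 for top2 and rqh1, and 0.88 for top1 and top2. The RMS difference named the most similar profiles among 2867 single-gene probe sets with a mean above background. For top1 these were ufd2 (0.041), which encodes a ubiquitin chain elongation factor, cft2 (0.049), a subunit of the mRNA cleavage and polyadenylation complex, and nrl1 (0.050). For top2 they were spo15 (0.087), a spindle pole body gene of sporulation, tho2 (0.16), of the THO complex in mRNA export, and the cohesin gene psm3 (0.16). For top3 they were the cohesin regulator gene pds5 (0.12), the Hsp90 co-chaperone gene sti1 (0.13) and slt1 (0.14), a likeness that rests in part on wild-type top3 values below background. For rqh1 they were the replication licensing gene cdt1 (0.031), the DNA ligase gene cdc17 (0.054) and arb1 (0.057), which encodes an Argonaute-binding protein. With 6 arrays in 3 groups, many genes can share a profile.

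The top3 gene lies near the deleted gene. In the gene order of assembly ASM294v3, which may not be the build behind the array, 2 protein-coding genes stand between top3 and fkh2, namely ptf2 and rps3. Of the measured genes around fkh2, 5 were taken on each side, and the 9 other than top3 did not go one way. In fkh2delta 4 of the 9 rose, 4 fell and 1 did not pass (limma, adjusted over all 2936). Of all probe sets 40.4% rose there and 64% passed in either direction. The median of the 9 was 0.015 against 0.16 over all probe sets. The ribosomal protein gene rps3, directly next to fkh2, differed by 0.01 ± 0.09 (adjusted p = 0.897, limma). The acetyltransferase-complex gene ptf2 rose by 0.30 ± 0.10 (adjusted p = 0.0221, limma), a call lost in 7 of 16 other settings. On the far side of top3, the co-chaperone gene bag101 rose by 0.39 ± 0.10 and the tryptophan synthesis gene trp4 fell by 1.18 ± 0.12 (adjusted p of 0.00632 and 6.3e-05, limma).

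On the other side of fkh2, in fkh2delta, the sterol synthesis gene erg24 (-0.54 ± 0.10), the RNA-binding protein gene cip1 (-0.90 ± 0.11) and the alpha-tubulin gene nda2 (-0.70 ± 0.09) fell, while eaf7 (0.57 ± 0.13), of a histone acetyltransferase complex, and meu7 (0.56 ± 0.11) rose. In fkh2-S2A, 1 of the 9 rose (eaf7, 0.37 ± 0.13, a call lost in 11 of 16 other settings) and 1 fell (meu7, -0.52 ± 0.11). Of all probe sets 33.3% passed there in either direction. The median of the 9 was -0.17 against 0.041 over all probe sets.

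**Figure D4:**
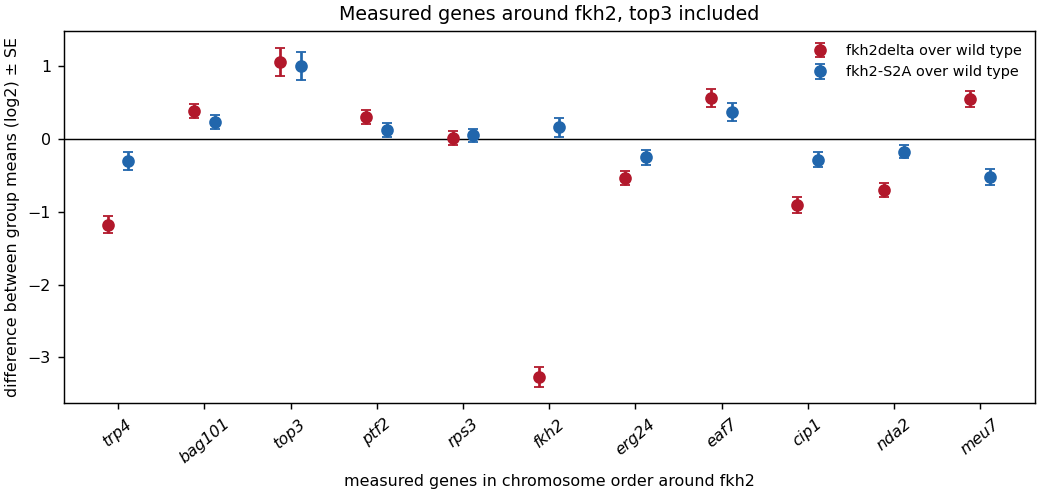
Difference from wild type (log2, vertical axis; error bars are the SE of the limma fit) for fkh2 and the 5 measured genes on each side in chromosome order (horizontal axis), with fkh2delta over wild type left of fkh2-S2A over wild type for each gene. The fkh2 value in fkh2delta comes from arrays below background, and top3 stands at 1.06 and 1.00 from wild-type values below background. Between top3 and fkh2, ptf2 and rps3 lie between 0.01 and 0.30. On the far side of top3, bag101 stands at 0.39 in fkh2delta and 0.23 in fkh2-S2A.

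The measured genes next to the other members were read in the same way. The gene next to top2 on one side is leu1, a leucine synthesis gene that often serves as a strain marker, and it moved against top2 in fkh2delta, falling by 0.38 ± 0.10 (adjusted p = 0.00897, limma). In fkh2-S2A leu1 differed by -0.04 ± 0.10 and did not pass (adjusted p = 0.775, limma). On the other side blt1, a cell division node gene, did not pass in either mutant (0.29 ± 0.17 and 0.47 ± 0.17). Next to top1 the vacuolar sorting gene vps33 rose by 0.78 ± 0.12 in fkh2delta and 0.54 ± 0.12 in fkh2-S2A, while the ubiquitin protease gene ubp9 fell by 0.71 ± 0.11 and 0.34 ± 0.11, the second call being lost in 7 of 16 other settings. Next to rqh1, prh1 fell in fkh2delta (-0.97 ± 0.12) and did not pass in fkh2-S2A (-0.13 ± 0.12). On its other side the autophagy gene atg22 did not pass in fkh2delta (-0.22 ± 0.10) and fell in fkh2-S2A (-0.57 ± 0.10).

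Genes that act with Rqh1 and Top3 on joined DNA molecules and in strand exchange were also more often higher than lower. Calls over all probe sets ran upward too, 1186 against 693 in fkh2delta and 689 against 289 in fkh2-S2A. Of 18 measured genes 11 rose and 1 fell in fkh2delta, 66.7% called where 64% of all probe sets were. Their median there was 0.60 against 0.16 over all probe sets. In fkh2-S2A 10 rose and 0 fell (limma, with 2 lower there at an unadjusted p below 0.05). That is 55.6% called where 33.3% of all probe sets were, with a median of 0.38 against 0.041. After quantile normalization 11 were higher and 4 lower in fkh2delta, and 7 higher and 2 lower in fkh2-S2A. The direct partner rmi1 was 9.00 and 9.06 on the fkh2delta arrays, 7.33 and 7.26 on the fkh2-S2A arrays, and 7.04 and 6.89 on the wild-type arrays. It stood far above the other groups in fkh2delta and only slightly above wild type in fkh2-S2A. The rmi1 rise was 2.06 ± 0.10 in fkh2delta (adjusted p = 1.19e-06, limma) and 0.33 ± 0.10 in fkh2-S2A (adjusted p = 0.0311, limma). Between the mutants rmi1 fell by 1.73 ± 0.10 in fkh2-S2A relative to fkh2delta (adjusted p = 3.47e-06, limma).

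Of the same list, eme1, which encodes the partner of the Mus81 nuclease, rose by 1.47 ± 0.13 and the nuclease-helicase gene dna2 by 1.14 ± 0.10 in fkh2delta. The deepest value there was that of the helicase gene fbh1 (-0.33), the 1 gene of the list that fell, chosen after its value was seen. In fkh2-S2A the DNA repair gene rad50 (1.26 ± 0.11), the helicase gene fml1 (0.81 ± 0.14) and nbs1 (0.70 ± 0.09), which encodes a partner of Rad50, rose most. Between the mutants 7 of the 18 were lower and 2 higher in fkh2-S2A, 50% called where 49.1% of all probe sets were. Among the lower genes swi5, a strand-exchange mediator gene, stood at -0.80 ± 0.15 and eme1 at -0.97 ± 0.13.

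Genes of chromosome condensation and cohesion, in which Top2 also acts, were mostly higher in both mutants. Of 13 measured genes 10 rose and 2 fell in fkh2delta (median 0.92 against 0.16), and 10 rose and 1 fell in fkh2-S2A (median 0.80 against 0.041). That is 92.3% and 84.6% called, where 64% and 33.3% of all probe sets were. The condensin genes cnd1 (1.39 ± 0.11), cnd2 (1.28 ± 0.12) and cut3 (1.27 ± 0.17) rose most in fkh2delta. In fkh2-S2A the cohesin gene psm3 (1.27 ± 0.11), cut3 (1.05 ± 0.17) and smc5 (1.04 ± 0.13), of the Smc5-Smc6 complex, did. Between the mutants cnd1 (-0.71 ± 0.11) and cnd2 (-0.39 ± 0.12) were lower in fkh2-S2A and 0 of the 13 were higher (limma, also 0 at an unadjusted p below 0.05). That is 15.4% called, where 49.1% of all probe sets were. With the length trend removed 5 of the 13 were called in that comparison, against 2.

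Genes of the replication fork and its checkpoint were also mostly higher. Of 15 measured genes 11 rose and 0 fell in each mutant (limma, also 0 lower at an unadjusted p below 0.05). That is 73.3% called, where 64% of all probe sets were in fkh2delta and 33.3% in fkh2-S2A. The median was 0.48 in fkh2delta and 0.40 in fkh2-S2A, against 0.16 and 0.041 over all probe sets. After quantile normalization 9 were higher and 2 lower in fkh2delta, and 5 higher and 2 lower in fkh2-S2A. The count of calls in fkh2-S2A was 7 with array weights and between 4 and 5 when wild-type replicate 2 or either fkh2-S2A array was left out. The replication protein A gene ssb3 (1.38 ± 0.11), the fork protection gene swi1 (1.33 ± 0.13) and the checkpoint kinase gene chk1 (1.05 ± 0.09) rose most in fkh2delta, chk1 standing at 0.27 after quantile normalization. In fkh2-S2A swi1 (0.94 ± 0.13), ssb1 (0.66 ± 0.11) and chk1 (0.60 ± 0.09) did. The wild-type chk1 values, 5.353 and 5.468, were barely above the background levels of 5.348 and 5.343, so the size of the chk1 differences is uncertain. Between the mutants ssb3 was lower in fkh2-S2A (-1.64 ± 0.11), as was the clamp gene hus1 (-0.46 ± 0.10), while the checkpoint gene rad26 was higher (0.69 ± 0.12).

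The 6 genes for the repair of blocked DNA ends, which include those left by a trapped Top1, were split. In fkh2delta 3 rose, the nuclease genes rad16 (1.16 ± 0.12), rad13 (0.74 ± 0.10) and apn2 (0.65 ± 0.11). The tyrosyl-DNA phosphodiesterase gene tdp1 (-0.35 ± 0.11) and the rad16 partner swi10 (-0.63 ± 0.13) fell, and pnk1 did not pass (0.18 ± 0.10). In fkh2-S2A 5 rose, among them rad16 (0.78 ± 0.12), apn2 (0.63 ± 0.11), rad13 (0.50 ± 0.10), tdp1 (0.35 ± 0.11) and pnk1 (0.33 ± 0.10), and swi10 fell (-0.45 ± 0.13). That is 83.3% called in fkh2delta and 100% in fkh2-S2A, where 64% and 33.3% of all probe sets were. After quantile normalization 3 were higher and 3 lower in fkh2delta, and 2 higher and 1 lower in fkh2-S2A. With array medians set equal, the length trend removed, array weights or the replicate block, 3 were higher and 1 lower in fkh2-S2A. The same split came from a mean-variance trend in eBayes and from the fit on 2 groups. The count of 6 calls in fkh2-S2A was 3 without wild-type replicate 1 and 2 without wild-type replicate 2. The tdp1 gene, whose product removes Top1 from DNA ends, was 0.69 ± 0.11 higher in fkh2-S2A than in fkh2delta (adjusted p = 0.00122, limma).

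Among relatives of RecQ and Spo11 and other DNA helicases, 3 of 7 measured genes rose and 0 fell in fkh2delta, where 40.4% of all probe sets rose, and 2 of 7 rose and 0 fell in fkh2-S2A, where 23.5% did (limma; 0 were lower at an unadjusted p below 0.05 in either mutant). The subtelomeric RecQ-like gene tlh2 was at least 46.2-fold higher in fkh2delta, since both wild-type arrays read it below background. Its 4 probe sets differed and its family has near-identical copies, so that size is uncertain. The recombination helicase gene rdh54 rose by 1.61 ± 0.12 and fml2 by 0.34 ± 0.11 in fkh2delta, the fml2 call being lost in 6 of 16 other settings. In fkh2-S2A chl1 (0.49 ± 0.15) and fml2 (0.35 ± 0.11) rose, calls lost in 4 and 10 of 16 other settings, and the count of calls was 0 after quantile normalization, with the length trend removed, and without wild-type replicate 2 or fkh2-S2A replicate 2. The Spo11-like gene rec12 did not pass in either mutant (-0.06 and -0.07). Between the mutants rdh54 was lower in fkh2-S2A (-1.28 ± 0.12), as was tlh2, which was not above background there.

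**Figure D5:**
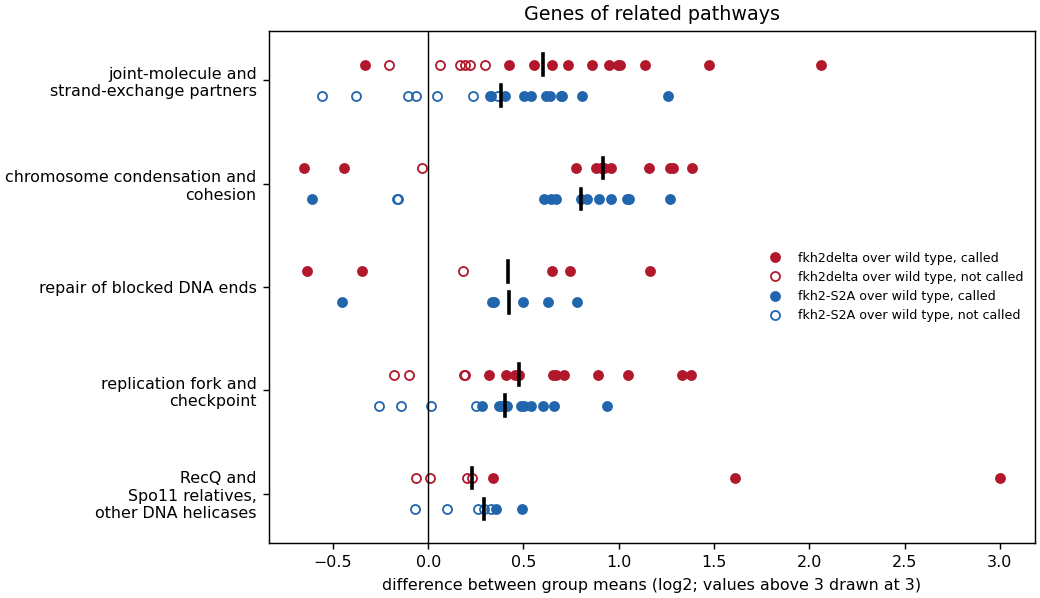
Difference from wild type (log2, horizontal axis) for each measured gene of 5 related lists, with fkh2delta (red) above fkh2-S2A (blue); filled points passed the threshold of the limma fit, open points did not, and black bars are medians. Each of the 5 medians lies above 0 in both mutants, from 0.23 to 0.92 in fkh2delta and from 0.29 to 0.80 in fkh2-S2A, although quantile normalization gave -0.15 for the repair of blocked DNA ends in fkh2delta.

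Over the 5 lists, 38 of 59 measured genes rose and 5 fell in fkh2delta, 72.9% called where 64% of all probe sets were. In fkh2-S2A 38 rose and 2 fell, 67.8% called where 33.3% of all probe sets were. With equal array medians these counts were 36 and 6 in fkh2delta and 30 and 5 in fkh2-S2A, and after quantile normalization 35 and 12 in fkh2delta and 24 and 6 in fkh2-S2A. Without wild-type replicate 2 the count of calls in fkh2-S2A was 22, against 287 over all probe sets. Between the mutants 4 of 59 were higher and 17 lower in fkh2-S2A, 35.6% called where 49.1% of all probe sets were.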

How the data were processed

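Biotin-labelled total RNA was hybridised to Affymetrix arrays, per the labels' protocols. The authors deposited 1 value per probe set and array, here read as log2 from its range. The values were used as deposited, and quantile normalization of the S. pombe probe sets, an alternative, moved some of them. No source used here states how the values were summarised and background-corrected, or from which build.

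Of 10928 probe sets, 2936 could be matched to the ASM294v3 gene table of S. pombe, nearly all through Entrez identifiers. These were fitted with limma 3.58.1 (R 4.3.3) in 1 linear model over 6 arrays with group as the sole term, Benjamini-Hochberg adjustment over all 2936 in each comparison and a two-sided threshold of 0.05. The fit was tested on simulated data. Gene lengths came from that assembly. A group below background on both arrays gave a bound, for which values under the background level were raised to it.

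The 4 genes, the lists and the tests were chosen with earlier results of these data known. Named genes were the 4 members, the 3 closest profiles to each, the measured genes next to them and around fkh2, and the 3 largest called differences of each list (all of a list of up to 6). Of 62 listed genes 59 were measured. Where a gene had several probe sets, the one with the highest mean was used. Alternatives were other normalization and centring, removal of the length trend, filters on dim probe sets, all species in the test, other eBayes priors, array weights, a fit on 2 groups, the replicate number as a block, and each array left out.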

Additional observations from a re-analysis of the deposited data

How the results depend on the processing

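The signal of each of the 4 genes stayed higher in both mutants than in wild type under every alternative that could be fitted. There were 16 settings for top1, top2 and rqh1, and 14 for top3, which the filters on dim probe sets remove. The top1 difference ran from 0.89 to 1.14 in fkh2delta and from 0.60 to 0.86 in fkh2-S2A. That of top2 ran from 0.92 to 1.37 and from 1.32 to 1.73. Because the genes were chosen with results known, passing or missing the threshold here describes only how processing moves a value. After quantile normalization top3 in fkh2delta was 0.46 and rqh1 in fkh2-S2A 0.19, neither past the threshold. With the length trend removed, rqh1 passed in fkh2delta (0.34) and not in fkh2-S2A (0.29), top1 passed between the mutants (-0.38), top2 did not (0.15) and rqh1 turned (-0.046). The fit on 2 groups let rqh1 pass in fkh2delta (0.28) and top1 between the mutants (-0.29), and array weights let rqh1 pass in fkh2delta (0.28), whereas quantile normalization left it at 0.028. Between the mutants top3 was 0.52 after quantile normalization. The causes of these shifts were not tested.

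With 1 array left out, in turn, the rqh1 difference in fkh2-S2A ran from 0.25 to 0.59, lost without either wild-type array or fkh2-S2A replicate 2. Between the mutants top2 ran from 0.25 to 0.51, lost without fkh2delta replicate 1 or either fkh2-S2A array, rqh1 from -0.035 to 0.30 and top3 from -0.19 to 0.077. The count of calls in fkh2-S2A over wild type ran from 287 to 921 over all probe sets and from 22 to 36 over the lists, lowest without wild-type replicate 2. Leaving out an array makes its group's other array stand alone, assumed to vary like the other groups.

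The replicate numbers pair nothing in the labels, and same-numbered arrays did not deviate together (correlations of -0.18, -0.085 and -0.27). With the number as a replicate block the counts were 1768, 836 and 1350, against 1879, 978 and 1441, and no call of the 4 genes changed. Of 1374 values of the other named genes under alternatives, 74 lost and 19 gained the threshold. Among values past the threshold in the main fit or the alternative, 0 changed sign. Sign changes of values that passed in neither were not counted, and rps3 in fkh2delta, for example, ran from -0.11 to 0.023. The top3 signal lies so near the background that its size in wild type is not measured.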
